A study of Mus musculus with 12 samples.

Results

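The genes that interferon switches on, here called the interferon-stimulated genes, were followed through liver of mice without METTL5. They are Ifi27, Ifit1, Ifit3, Isg15, Irf7, Irf9, Stat2, Bst2 and Usp18, 9 of the 55487 genes in the count table, and all 9 are also among the 10607 genes with normalized values. The group was chosen by the values of Ifi27, which was lower in the knockout, so the values of Ifi27 are given as a description with no test. The other 8 genes were joined to it by name.

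The animals were 3 wild-type mice (WT) and 3 mice in which Mettl5 was deleted in the whole body (KO). In the KO, floxed exon 2 of Mettl5 was removed by crossing to a CMV-Cre line. The line came from stem cells of an F1 hybrid, C57bl/6 x 129S6, and was backcrossed to B6. Each WT mouse was a littermate of the KO mouse with the same number, which gave 3 litters. Every liver was lysed with cycloheximide, which holds ribosomes in place, and was split between 2 assays. Input is RNA-seq of the lysate and measures transcript abundance. Ribosome-protected fragments (RPF) are the pieces of RNA left after nuclease digestion because a ribosome sat on them. This gave 12 libraries in 4 groups of 3. The age of the 6 mice was not used here, and Xist had 0 counts while 4 Y-linked genes were counted in every mouse.

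Interferons are secreted proteins that cells release on sensing foreign or misplaced nucleic acid. Type I and III interferons act through receptors and JAK kinases on a complex that holds STAT2 and IRF9 and binds an interferon-stimulated response element in the promoters of target genes. Liver, whose hepatocytes and resident macrophages meet material from the gut, shows a resting level of many of these genes. Among the genes here, STAT2, IRF9 and IRF7 are transcription factors of the pathway, IFIT1 and IFIT3 bind foreign RNA or partner with proteins that do, and BST2 (tetherin) holds budding virus at the cell surface. ISG15 is a ubiquitin-like tag, and USP18 removes it and also dampens signalling at the interferon receptor.

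The response element has a core of paired GAAA letters, and its place in the promoters is shown first because it is the feature for which these genes are best known. RefSeq promoter windows of GRCm38.p6, reaching from 250 bases before to 50 bases after each annotated start, were matched for 7 of the 9 genes. The core was searched as GAAANNGAAA and, on the other strand, as TTTCNNTTTC, with overlapping matches counted. It was present in the windows of 5 of these 7 genes, 71.4%, against 3.99% of the 27025 genes with a window and 50% of the 72 genes with one in a wider list of interferon-stimulated genes. The windows of Irf7 and Irf9 did not hold these letters. The stretches around the matches are given on the strand of the gene, with the matched letters in capitals.
Ifit1, chr19:34640765-34640833, plus strand: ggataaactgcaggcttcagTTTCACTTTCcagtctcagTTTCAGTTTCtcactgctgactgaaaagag
Ifit3, chr19:34583353-34583436, plus strand: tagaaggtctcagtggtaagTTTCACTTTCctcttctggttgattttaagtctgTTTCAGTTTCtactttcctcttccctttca
Isg15, chr4:156200855-156200916, minus strand: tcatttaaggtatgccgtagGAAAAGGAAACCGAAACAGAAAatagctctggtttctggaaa
Stat2, chr10:128270256-128270305, plus strand: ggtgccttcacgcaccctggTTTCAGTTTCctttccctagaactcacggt
Bst2, chr8:71537567-71537622, minus strand: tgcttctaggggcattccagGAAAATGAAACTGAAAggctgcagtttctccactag
The 3 overlapping matches of Isg15 lay 78 to 57 bases before its start, and the 2 overlapping matches of Bst2 lay 130 to 115 bases before. Ifit1 and Ifit3 each had 2 separate matches, and Stat2 had 1 match, 222 to 213 bases before its start. A match is a description of the letters and was not tied to binding of any factor here.

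Ifi27, a small membrane protein strongly induced by interferon, stood lower in KO liver in both assays. It lies on chromosome 12 at 103434211 to 103440239 of mm10. Its normalized input reads, which are reads scaled by 1 factor per library, were 235, 393 and 279 in WT mice 1 to 3 and 151, 130 and 139 in KO mice 1 to 3. The lowest WT mouse was therefore above the highest KO mouse, with means of 303 ± 81.8 (SD, n = 3) and 140 ± 10.2 (SD, n = 3). In RPF the gene had 839, 1069 and 940 normalized reads in WT and 532, 429 and 393 in KO. The groups again did not overlap, and KO was at 46.3% of WT in input and at 47.5% in RPF. Translation efficiency (TE), the ratio of RPF to input, was 3.22 ± 0.447 (SD, n = 3) in WT and 3.22 ± 0.36 (SD, n = 3) in KO. In bulk tissue, fewer cells that express a gene and less RNA per cell cannot be told apart.

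**Figure D1:**
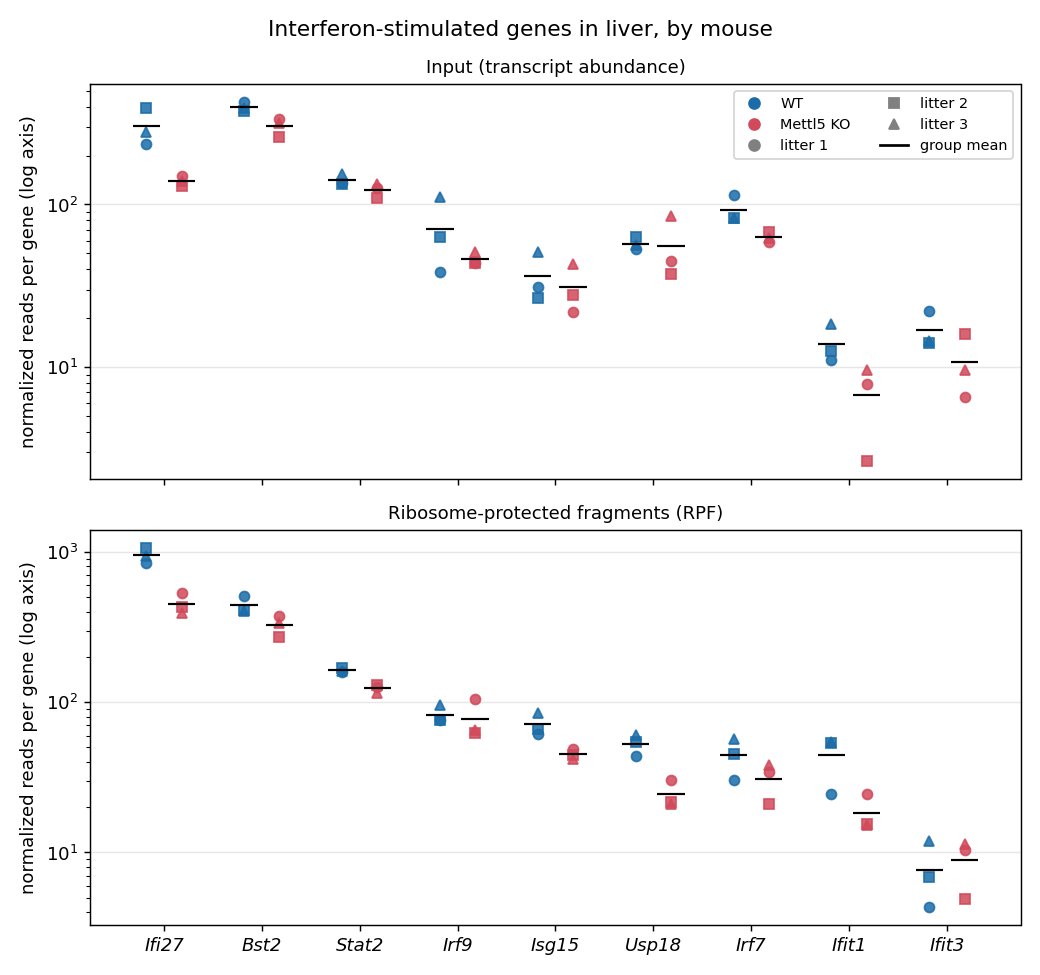
Normalized reads of the 9 genes in each mouse (log axis), input above and RPF below, with WT in blue, KO in red, marker shape for litter and a black line for the group mean. In RPF the KO mice lay below all WT mice for Ifi27, which chose the group, and for Bst2, Stat2, Isg15, Usp18 and Ifit1, the last by 24.4 against 24.3. The same held for 12.9% of all 8994 genes tested in RPF.

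The background for the other genes was set by all genes tested. In input, edgeR's quasi-likelihood test called 0 of 10057 genes at an adjusted p under 0.05, a share of 0%, with 348 at an unadjusted p under 0.05. In RPF, limma called 44 of 8994 genes, a share of 0.489%, and in TE it called 0 of 8994, a share of 0%, with 423 at an unadjusted p under 0.05. That TE fit did not pair the input and RPF of a mouse. With a block of mouse it called 0, with 774 at an unadjusted p under 0.05. With blocks of mouse and litter it called 9, with 900. DESeq2 called 1 gene in input, and edgeR on whole reads called 0 in TE. Beside Ifi27, 7 of the genes could be tested in each comparison, all but Ifit1 in input and all but Ifit3 in RPF and TE. None of them was called in the main fits. With litter as a replicate block, limma called 293 of 8994 genes in RPF, among them Usp18 (limma adjusted p = 0.0307). At an unadjusted p under 0.05, in the direction of lower in KO, the shares of all genes were 1.49% in input, 7.99% in RPF and 2.61% in TE. Of the 7 genes, 2 were past it in input (Irf7 and Bst2), 5 in RPF (Ifit1, Isg15, Stat2, Bst2 and Usp18) and 1 in TE (Usp18). Genes with every KO mouse below every WT mouse made up 4.34% of all genes in input, 12.9% in RPF and 7.34% in TE, and the same 2, 5 and 1 of the 7 genes were among them. The 5 in RPF became 4 when the columns were centred, when the trend with GC content was removed or when CPM of whole reads was used, scalings added after the data were seen, and the one that left was Ifit1.

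The 7 genes tested had fold changes below 0 in input, as did the 7 tested in RPF, with medians of −0.36 and −0.50 on the log2 scale. Ifit3, which the filter on low values left out of RPF, changed by 0.22 without that filter, and the RPF median was then −0.465. Over all genes tested the medians were −0.00037 in input and −0.03 in RPF, with 50% and 54% of genes below 0. In TE the median of the 7 was −0.11 and 5 of the 7 lay below 0, against 51.3% of all genes tested. These genes were picked with results of the data known, so the counts are a description.

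**Figure D2:**
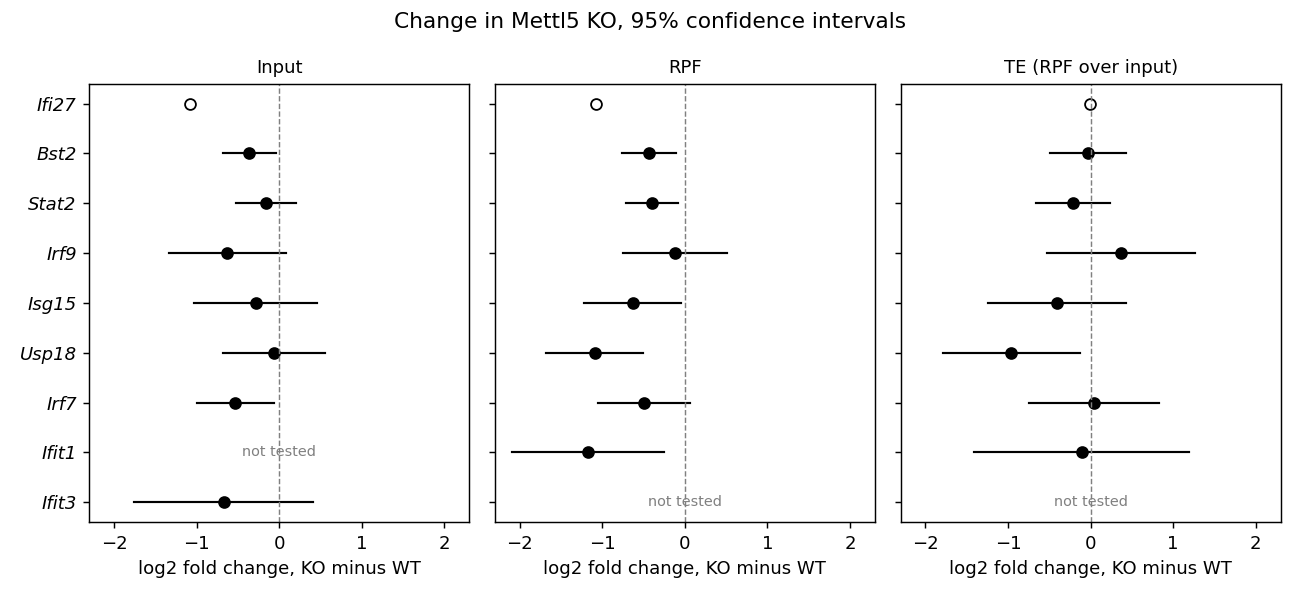
Log2 fold change of KO against WT for input (edgeR), RPF and TE (limma), with 95% confidence intervals. Ifi27 is drawn as an open point without an interval because it chose the group, and Ifit1 in input and Ifit3 in RPF and TE were under the filters on low values. RPF intervals of Bst2, Stat2, Isg15, Usp18 and Ifit1 lay below 0, and TE intervals other than that of Usp18 included 0.

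Usp18, the protease that removes ISG15 and restrains the interferon receptor, lies on chromosome 6 at 121245906 to 121270917 of mm10 and had the lowest p among the 7 in RPF. Its normalized input reads were 53.2, 62.7 and 56.4 in WT and 44.7, 37.2 and 84.8 in KO, and the KO values lay on both sides of the WT range. In RPF it had 43.6, 54.6 and 60.3 in WT and 30.6, 21.5 and 21.0 in KO, a clean separation resting on 50, 64 and 117 reads in WT and 44, 35 and 22 in KO. The fitted difference in RPF was −1.09 on the log2 scale (SE 0.28, 95% confidence interval −1.68 to −0.51, limma adjusted p = 0.0799). With litter as a replicate block the limma adjusted p was 0.0307, and without KO mouse 1 it was 0.0421. With the block plus removal of trends with GC content and length it was 0.0553. Removing the GC trend alone gave 0.14, and edgeR on whole reads gave 0.125. With each of the other mice left out, limma gave 0.158 to 0.273. Input changed by −0.06 (SE 0.29, edgeR adjusted p = 0.999), and its sign turned when WT mouse 2, KO mouse 1 or KO mouse 2 was left out. TE was 0.819, 0.871 and 1.07 in WT and 0.684, 0.578 and 0.248 in KO. The TE log2 fold change was −0.96 (SE 0.40, 95% confidence interval −1.79 to −0.13) with an unadjusted p of 0.0256 and a limma adjusted p of 0.998. With a block of mouse the limma adjusted p was 0.5, and with blocks of mouse and litter 0.39. The lowest TE was in KO mouse 3, which had the highest input of the 6 mice, and without it the change was −0.52.

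Isg15, the tag that USP18 removes, lies on chromosome 4 at 156199455 to 156200796 and had input reads of 31.2, 26.6 and 51.1 in WT and 21.7, 27.9 and 43.2 in KO. The 2 mice of litter 3 were the highest of their groups. In RPF the values were 61.9, 66.6 and 85.1 in WT and 48.7, 44.9 and 42.1 in KO, with no overlap. The fold change in RPF was −0.63 on the log2 scale (SE 0.28, limma adjusted p = 0.343), and the input change was −0.29 (SE 0.35, edgeR adjusted p = 0.999), which became 0.07 without WT mouse 3. TE differed by −0.41 (95% confidence interval −1.24 to 0.43), or by −0.0953 without KO mouse 3.

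The enzymes that attach ISG15 were measured beside it. Ube2l6, its conjugating enzyme, had RPF values of 201, 191 and 168 in WT and 124, 111 and 107 in KO, and Herc6, the ligase in mouse, had 128, 134 and 116 in WT and 98.0, 68.2 and 70.7 in KO. Both sets were apart, with log2 fold changes of −0.71 (limma adjusted p = 0.0801) and −0.68 (limma adjusted p = 0.173), while their input fold changes were −0.16 and 0.03. With the replicate block the adjusted p of Ube2l6 was 0.0285. Uba7, the activating enzyme, had an RPF log2 fold change of 0.31 (limma adjusted p = 0.707). These 3 enzymes were named after their values were seen.

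Bst2, on chromosome 8 at 71534255 to 71537456, had the highest WT input of the 9 genes per exon length. Its input reads were 429, 378 and 391 in WT and 336, 259 and 317 in KO, so every KO mouse was lower. In RPF it had 507, 411 and 403 in WT and 374, 272 and 335 in KO, and KO was at 74.3% of WT. The log2 fold change was −0.36 (SE 0.15, edgeR adjusted p = 0.999) in input and −0.43 (SE 0.16, limma adjusted p = 0.221) in RPF. In RPF the limma adjusted p was 0.0593 with the replicate block and 0.0275 with the block plus removal of trends with GC content and coding length. It was 0.152 with the GC trend alone removed and 0.0867 to 0.517 with a mouse left out. With edgeR on whole reads the adjusted p was 0.349. The TE change was −0.03 (95% confidence interval −0.49 to 0.43). That interval is too wide to show whether transcript and footprint levels differed by the same amount.

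Ifit1, which binds RNA lacking the host's cap methylation, lies on chromosome 19 at 34640871 to 34650009 and was scarce in liver. It had 6, 8 and 14 input counts in WT and 12, 2 and 6 in KO, too few for the edgeR filter. In RPF its 28, 63 and 106 reads in WT and 35, 25 and 16 in KO gave normalized values of 24.4, 53.8 and 54.7 against 24.3, 15.4 and 15.3. WT mouse 1 and KO mouse 1, which are littermates, were nearly equal, and the other 2 litters were further apart. This was a difference of −1.17 on the log2 scale (SE 0.44, limma adjusted p = 0.249). Ifit1 entered that fit only because WT lifted its mean input over the minimum of 10. Ifit3, its partner, on chromosome 19 at 34583531 to 34588731, had 12, 9 and 11 input counts in WT and 10, 12 and 6 in KO and an input log2 fold change of −0.67 (SE 0.51, edgeR adjusted p = 0.999), which was −0.34 without KO mouse 1 and −1.06 without KO mouse 2. Its RPF values were 4.36, 6.83 and 11.9 in WT and 10.4, 4.92 and 11.5 in KO. These overlapped fully and were below the minimum mean of 10. Without that minimum its RPF change was 0.22 (SE 0.46). Ifit3b, a near copy of Ifit3, had 1 to 6 input counts per mouse, and only uniquely mapped reads were counted, so the level of Ifit3 is uncertain.

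Stat2, the partner of IRF9, lies on chromosome 10 at 128270559 to 128292849. Its RPF values were 159, 169 and 162 in WT and 126, 131 and 115 in KO. Each KO mouse was below each WT mouse, and the means were 163 ± 4.92 (SD, n = 3) and 124 ± 8.31 (SD, n = 3). On the log2 scale RPF differed by −0.40 (SE 0.15, limma adjusted p = 0.255). Input reads of 136, 133 and 153 in WT and 126, 110 and 134 in KO overlapped, with a log2 fold change of −0.17 (SE 0.17, edgeR adjusted p = 0.999).

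Irf9, the DNA-binding subunit of the same complex, on chromosome 14 at 55603571 to 55610030, spread more between the WT mice. Its input reads were 38.5, 62.7 and 111 in WT and 43.4, 43.9 and 51.2 in KO, and the high mean of WT came from mouse 3. The input log2 fold change was −0.63 (SE 0.33, edgeR adjusted p = 0.999), and −0.13 without WT mouse 3. In RPF it had 75.8, 75.9 and 95.9 in WT and 106, 62.7 and 65.0 in KO. KO mouse 1 was the highest of the 6, and the RPF change of −0.12 (SE 0.30, limma adjusted p = 0.899) turned to 0.01 without KO mouse 2. Its annotated span overlaps that of Rnf31 on the same strand.

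Irf7, which drives later waves of interferon genes, lies on chromosome 7 at 141262706 to 141266481 and had input reads of 114, 83.1 and 82.6 in WT and 59.2, 67.8 and 62.4 in KO. The groups were apart in input, with a log2 fold change of −0.53 (SE 0.22, edgeR unadjusted p = 0.0277, adjusted p = 0.999). In RPF they overlapped, with 30.5, 45.2 and 57.3 in WT and 34.1, 20.9 and 38.2 in KO. The RPF change was −0.50 (SE 0.26, limma adjusted p = 0.428), which was −0.24 without KO mouse 2 and −0.29 without WT mouse 3. TE, among the lowest of the group, was 0.502 ± 0.216 (SD, n = 3) in WT and 0.499 ± 0.166 (SD, n = 3) in KO.

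Per length, the order of the 9 genes in WT liver differed between the assays. In input, TMM-scaled CPM per kilobase of exon was highest for Bst2 (33.1 ± 2.21, SD, n = 3), then Ifi27 (15.5 ± 4.16) and Isg15 (3.88 ± 1.4). The following pair, Irf7 at 1.85 and Stat2 at 1.78, overlapped between mice, as did Usp18 with Irf9 and Irf9 with Ifit3, and Ifit1 was last at 0.395. In RPF, normalized reads per kilobase of coding sequence put Ifi27 first (1217 ± 148), ahead of Bst2 (853 ± 112) and Isg15 (147 ± 25.4), each apart from the next. Irf9 and Stat2, at 59.2 and 59.0, could not be separated, nor could Usp18 and Irf7 or Irf7 and Ifit1, and Ifit3 was last at 6.35. In KO liver the RPF levels of Ifi27 and Bst2 were 579 ± 92.4 and 634 ± 100 (SD, n = 3), a difference smaller than either SD.

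The mice were also compared by a mean over the group. The mean log2 level of the 8 genes other than Ifi27, each set against its own mean over the 6 mice, was 0.17, 0.12 and 0.41 in input of WT mice 1 to 3 and −0.34, −0.38 and 0.03 in KO. In RPF it was −0.02, 0.28 and 0.51 in WT and −0.01, −0.51 and −0.26 in KO. Input groups were apart, whereas in RPF the mean of litter 1 was level and the difference in the mean came from litters 2 and 3. The level mean of litter 1 joined genes that moved in opposite directions. From WT mouse 1 to KO mouse 1, RPF rose for Ifit3 (4.36 to 10.4), Irf9 (75.8 to 106) and Irf7 (30.5 to 34.1). RPF fell for Usp18 (43.6 to 30.6), Isg15 (61.9 to 48.7), Stat2 (159 to 126) and Bst2 (507 to 374). Ifit1 was nearly equal, and Ifit3 was below the minimum mean of 10. WT mouse 3 was the highest of the 6 for 5 of the 9 genes in RPF and 4 in input, and KO mouse 3 was the lowest for 5 of the 9 in RPF and for none in input.

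**Figure D3:**
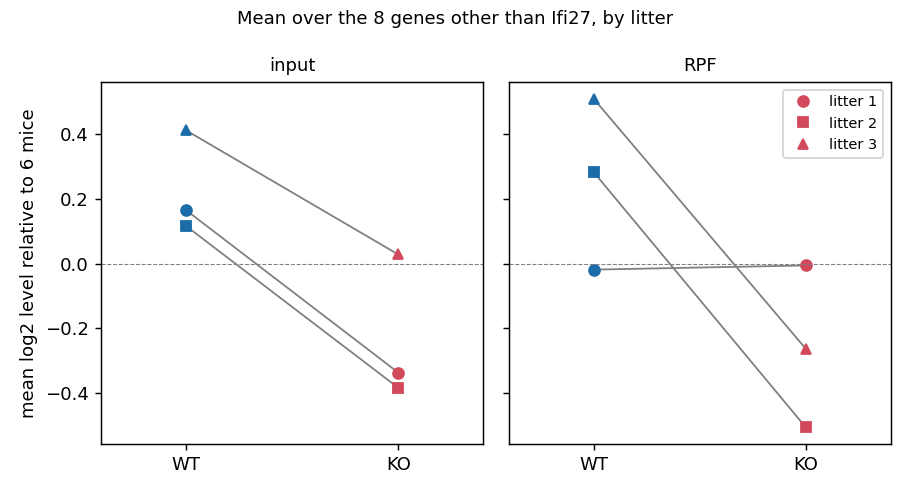
Mean log2 level of the 8 genes other than Ifi27 relative to their mean over the 6 mice, in input and RPF, with lines joining littermates. In RPF the line of litter 1 was flat, from −0.02 to −0.01, and those of litters 2 and 3 fell. The flat mean of litter 1 joined genes that were higher and genes that were lower in KO.

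Among the 8994 genes fitted with limma, the 5 whose values over the 12 libraries, each assay centred on its own mean, were most like those of Ifi27 were Actr2 (Pearson's r = 0.947), Ugt2b5 (0.941), Lamp1 (0.939), Apob (0.939) and Usp33 (0.939). None of these is an interferon gene of the lists used. Of the other genes of the group, Ifit1 and Stat2 had r of 0.812 and 0.8, with 92 and 106 genes above them. Irf9 was lowest at 0.467, with 1471 genes above it. The 12 points share their mice and the difference between genotypes, so these values are a description.

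The rest of the pathway was examined with a wider list of 177 further genes, covering ligands, receptors, transcription factors, brakes, sensing of nucleic acids, other interferon-stimulated genes, ISG15-attaching enzymes and antigen presentation. None of the 9 interferon genes in the list had a count in any input library, among them Ifnb1, Ifng and 3 Ifna genes, so they were not detectable at this depth. In input 69 of 119 tested genes of the list (58%) lay below 0 and in RPF 78 of 120 (65%), with medians of −0.07 and −0.16. Over all genes tested, 50% lay below 0 in input and 54% in RPF. Without a litter term, the list had 0 genes past an adjusted p of 0.05 in input, RPF and TE. With litter as a replicate block 8 of the 120 genes of the list tested in RPF passed, against 293 of all 8994 genes. Of these 8, 5 were lower in KO (Apol9a, Apol9b, B2m, Nampt and Ube2l6) and 3 higher (Cd74, H2-Ab1 and H2-Eb1). In the fit without the block, 16 of the 120 were lower at an unadjusted p under 0.05 in RPF, against 7.99% of all genes, and 5 were higher, against 486 of all 8994 genes. The minimum mean of 10 was taken over WT and KO together, so a gene could enter through 1 genotype alone. Ifit2 (mean RPF 16.8 in WT and 5.73 in KO) and Ifi44 (20.4 and 8.56) entered through WT and are among the lower genes. Both were named after their values were seen, and how many genes entered through either genotype was not counted. Every KO mouse was below every WT mouse for 23 of the 120, against 12.9% of all genes, and above for 8, against 627 of all 8994.

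The other interferon-stimulated genes had 41 of 55 below 0 in RPF (74.5%), with a median of −0.23, where 54% of all genes tested lay below 0. Receptors and kinases, such as Ifnar1 (log2 fold change in RPF −0.17) and Ifnar2 (−0.05), had a median of −0.05, and the 10 further transcription factors had 0.10. Within the sensing genes 11 of 16 lay below 0, with a median of −0.11. Among the brakes 4 of 6 did, with a median of −0.26.

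**Figure D4:**
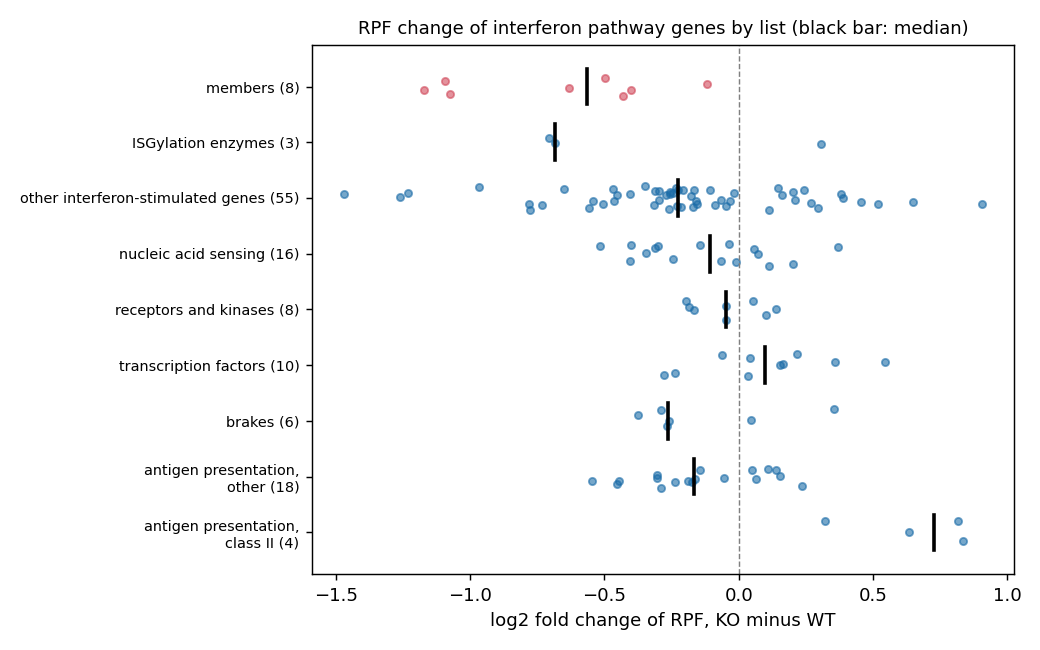
RPF log2 fold change of each tested gene of the interferon pathway by list, with a black bar at the median and the number of genes in parentheses; vertical scatter within a row has no meaning. The 8 tested genes of the group, in red, had a median of −0.57 including Ifi27, which chose the group, and −0.50 without it. The 4 class II genes had a median of 0.73.

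Apol9a, an interferon-induced apolipoprotein L gene, had the lowest p of the wider list in input and in RPF. Its input reads were 49.5, 59.6 and 74.7 in WT and 27.0, 22.6 and 22.4 in KO, and its RPF values were 22.7, 27.3 and 21.7 in WT and 9.73, 7.99 and 10.5 in KO. Both assays were apart, at −1.31 in input (edgeR adjusted p = 0.513) and −1.26 in RPF (SE 0.28), where its limma adjusted p of 0.05 just missed the threshold and was 0.0227 with the replicate block. Its neighbour in name, Apol9b, a close copy whose reads may be shared, had −0.66 and −0.73 (limma adjusted p = 0.0972 in RPF, 0.0455 with the block). Both were singled out after their values were seen.

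The 20 genes of the wider list with the highest input, chosen by level alone, included 12 below 0 and 8 above 0 in RPF, where 54% of all genes tested lay below 0. Their log2 fold changes ran from −0.55 to 0.64, and the lowest limma adjusted p was 0.14. B2m, the light chain of class I molecules, was at the lower end, with RPF of 13237, 9566 and 9127 in WT and 9060, 6613 and 6181 in KO and a limma adjusted p of 0.148, or 0.0298 with the block. The class I heavy chains H2-K1 and H2-D1 had −0.05 and 0.11. Iigp1, an immunity-related GTPase, had −0.47 (limma adjusted p = 0.22), Ifitm3, which blocks virus entry, had −0.31 and Trim25, a ubiquitin ligase of RNA sensing, had 0.25. Jak1 and Stat3, shared by many cytokines, had 0.10 and 0.22. Mavs, the adaptor of RNA sensing, had −0.30 and Lgals9, a secreted lectin, −0.23. Further genes of the 20 were Ptpn11 (0.05), Helz2 (−0.02), Ly6e (−0.11), Rnf213 (−0.16), Tent5a (−0.46), H2-T23 (−0.14), Tapbp (0.05) and Erap1 (−0.24), all in RPF on the log2 scale.

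Of the class II antigen-presentation genes, 4 were tested, and none passed in the fits without the block. Cd74, the invariant chain and the last of the 20, had RPF values of 917, 744 and 778 in WT and 1686, 1081 and 1090 in KO, and input of 374, 353 and 231 against 522, 481 and 440. Every KO mouse was above every WT mouse in both assays, with a log2 fold change of 0.64 in RPF (SE 0.19, limma adjusted p = 0.14, with the block 0.0148). H2-Ab1 and H2-Eb1, the beta chains, had RPF log2 fold changes of 0.84 and 0.82 (limma adjusted p = 0.0597 and 0.0788, with the block 0.0165 and 0.0152), and H2-Aa, whose groups overlapped in both assays, had 0.32 (limma adjusted p = 0.77). Input fold changes of the 4 had a median of 0.66. H2-Ab1, H2-Eb1 and H2-Aa, like the 2 receptor subunits, were named after their values were seen.

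Markers of the cells that liver lysate can hold were summed in TMM-scaled CPM of input. The 8 hepatocyte markers summed to 24022 to 31113 in WT and 24489 to 26534 in KO. Kupffer cell or macrophage markers, 12 of 12 counted, gave 108 to 154 and 99.1 to 146, and those of T, NK or B cells 3.45 to 8.93 and 5.54 to 6.92. Sinusoidal endothelial markers gave 112 to 124 in WT and 109 to 130 in KO, stellate cell markers 71.3 to 87.7 and 82.8 to 100.5, and cholangiocyte markers 6.34 to 8.11 and 6.54 to 9.39. Red blood cell markers gave 46.9 to 60.7 and 40.9 to 47.3, with 5 of 5 lower in KO, against 50% of all genes tested in input. Plasmacytoid dendritic cell markers gave 13.3 to 23.1 and 9.36 to 58.8, with Klk1 and Cox6a2 at 0 and Siglech and Ccr9 at no more than 0.308, so that these sums are nearly all Tcf4, which other cell types express too. Neutrophil markers gave at most 0.361, with Ly6g, Mpo and Camp at 0. Every one of these input sums overlapped between the groups. In RPF, 3 of the 5 stellate cell markers tested (Dcn, Reln and Colec11) had every KO mouse above every WT mouse, against 627 of all 8994 genes. These 3 were also higher at an unadjusted p under 0.05 (limma), against 486 of all genes. The other 2 (Lrat and Rgs5) overlapped, and the median of the 5 was 0.41 on the log2 scale. RPF medians were −0.21 for hepatocyte markers, with 6 of 8 lower, and −0.86 for the 3 red blood cell markers tested, all lower. Of all genes tested in RPF, 54% were lower. Of the hepatocyte markers, 2 were lower at that unadjusted p, against 719 of all genes. Kupffer cell or macrophage markers had a median of 0.03 and cholangiocyte markers 0.27. The limma adjusted p of Dcn was 0.0934. The part of these markers in the values above was not tested.

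Depth and the target gene were checked once. Input libraries held 8326325 to 11825643 counted read pairs, and the genes with normalized values held 2398804 to 5121304 input reads and 4623826 to 9184242 RPF reads. Mettl5 had 21, 18 and 12 input counts in WT and 13, 7 and 5 in KO, and 67, 56 and 103 RPF reads in WT and 12, 9 and 10 in KO. Across genes the RPF change moved with GC content of the coding sequence (Spearman's rho = 0.455, against 0.085 in input). The 9 genes had a GC content of 47.6% to 59.2%, around the median of 52.6% over genes. With this trend removed from RPF, the log2 fold changes were −1.11 for Ifi27, −1.07 for Usp18, −1.05 for Ifit1, −0.76 for Isg15, −0.69 for Irf7, −0.61 for Bst2, −0.41 for Stat2 and −0.19 for Irf9.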

How the data were processed

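The authors trimmed reads with BBDuk, aligned input to mm10 with STAR 2.7.3a and counted unique read pairs per gene with featureCounts, using strand. Deposited input values are these counts. RPF used read 1 through RiboToolkit, without duplicate removal. The authors' deposited normalized table, used as signal, holds reads times 1 factor per library with no gene length. Whole reads were recovered for 100% of values (within 0.1 read). Its columns of log2 fold change and p-value, deposited by the authors, hold their own comparison and were not used.

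Input was tested with edgeR 4.0.16 (TMM, filterByExpr, robust quasi-likelihood), and RPF and TE with limma 3.58.1 (trend, robust) on log2(value + 1), in R 4.3.3, keeping genes whose mean reached 10 in both assays. That scale understates changes of low genes. The design had assumed a normalized unit for this table. Adjusted p-values are two-sided Benjamini-Hochberg values over all genes tested. The SE of an edgeR fold change is its size divided by the square root of F. Alternatives included DESeq2 1.42.0, other filters, pseudocounts of 0.1 and 5, GC correction, edgeR on whole reads (20 genes called in RPF) and leaving out each mouse. Labels call same-numbered mice littermates, so they are paired. Deviations of littermates correlated across genes in litters 1 to 3 (input 0.082, 0.127 and 0.100, RPF 0.242, 0.144 and 0.195). The main fits nevertheless leave litter out, since no litter term is described for the authors' own test. The paired fit is given wherever it changes a call. The main TE fit also leaves mouse out, so input and RPF of the same liver are treated as independent.

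The group and the lists were chosen with earlier results of these data known. Genes named from the wider list were the 20 with the highest mean input among those tested in input and RPF, and any past an adjusted p of 0.05. Of these, 1 is not reported here. The 5 genes most like Ifi27 were named by correlation. No column of the files lacked a sample.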

Additional observations from a re-analysis of the deposited data

How the results depend on the processing

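With litter as a replicate block, 1 of the other genes of the group passed in RPF (Usp18) and 8 genes of the wider list did, and with the block plus removal of trends with GC content and coding length 1 did (Bst2) and 3 of the wider list (Apol9a, Cd74 and H2-Eb1). The paired fits changed no other call. With the GC trend alone removed, edgeR on whole reads or RPF columns alone, 0 of these genes and 0 of the wider list passed in RPF. At an adjusted p of 0.1, 1 of the group (Usp18) and 5 of the wider list passed in RPF, against 144 of all 8994 genes. A pseudocount of 0.1 let 1 gene of the wider list pass in RPF (Apol9a), and a minimum mean of 50 let 1 pass (H2-Ab1). Input without a count filter let 3 pass (Apol9a, Cd74 and H2-Eb1). Over all genes these settings called 45 of 8994, 63 of 5038 and 30 of 23941. The causes were not tested. Leaving out each mouse gave 0 to 1 called gene of the group in RPF and 0 to 3 of the wider list, with 1 (Usp18) and 3 reached without KO mouse 1 and 1 of the wider list (Irgm1) without WT mouse 1. Counts in TE were 0 under every alternative run. Fold changes whose sign turned when a mouse was left out ranged from −0.56 to 0.0705 for Isg15 and −0.43 to 0.14 for Usp18 in input, −0.36 to 0.0146 for Irf9 in RPF, and in TE −0.48 to 0.30 for Ifit1, −0.35 to 0.35 for Irf7 and −0.0796 to 0.0185 for Bst2. With the sign kept, the range was −0.91 to −0.129 for Irf9 and −1.06 to −0.339 for Ifit3 in input, −0.738 to −0.244 for Irf7 in RPF and −1.23 to −0.521 for Usp18 in TE. Irf7 in TE also became −0.14 with the GC trend removed, −0.14 with the block as well and −0.0031 with edgeR on whole reads. The number of input counts, 2 to 14 for Ifit1 and 6 to 12 for Ifit3, limits what these libraries can show for both genes. Over all genes, the 44 RPF calls became 293 with the block, 88 with the block and trends removed, 15 with the GC trend removed, 20 with edgeR on whole reads, 23 with RPF columns alone and 0 (without KO mouse 2) to 226 (without KO mouse 1) with a mouse left out. The 0 input calls became 30 without a count filter, 2 with the block, 2 with limma, 1 with DESeq2 and up to 21 with a mouse left out. In TE, blocks of mouse and litter together gave 9.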
